A study of Homo sapiens with 11 samples.

Results

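The genes described here serve the first steps of mucin-type O-glycosylation. Their transcripts were measured by RNA sequencing in libraries labelled MDA-MB-231, an established human line from a triple-negative breast cancer. The set is 10 genes, 8 GALNT genes together with C1GALT1 and C1GALT1C1, of the 37247 gene identifiers in the expression table. Members were found by matching unversioned Ensembl identifiers to those symbols, and all 10 were in the table and passed the filter on low values. They were chosen by their TPM and log2 differences in this same comparison, so their levels and differences are given as a description, with no test resting on them.

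The labels name 3 libraries as Control-KD, with the genotype WT, and 3 as H2AS40-KD, a knockdown of S40-type histone H2A (H2A with a serine at residue 40). All came from cells kept in DMEM with fetal bovine serum. The labels do not say how the knockdown was made, for how long, or whether replicates were separate cultures, so the spread between replicates may be technical. The other 5 samples of the series, from chromatin immunoprecipitation, were not analysed here.

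Mucin-type O-glycosylation takes place in the Golgi. A polypeptide N-acetylgalactosaminyltransferase, encoded by a GALNT gene, transfers N-acetylgalactosamine (GalNAc) from UDP-GalNAc to a serine or threonine and so makes the Tn structure. The family divides the work: some members act on bare peptide, and others prefer a peptide that already carries GalNAc nearby. C1GALT1, the T-synthase, then adds galactose to make core 1, and it depends on its own endoplasmic reticulum chaperone, C1GALT1C1 (Cosmc). Loss of that chaperone leaves truncated Tn glycans, which are frequent on carcinoma cells.

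Values were in TPM (transcripts per 1000000), in which reads are divided by gene length and scaled to the same total in each library, so levels can be set side by side between genes but the sequencing depth is unknown. From 14073 to 14120 genes had at least 1 TPM per library. Control-KD replicate 3 stood apart on the first principal component, at 31.2, where the other 5 libraries lay between -12 and 0.784. H2AC25 and H2AC7 were taken from recollection to be S40-type genes. H2AC25 lay at 31.3 to 33.5 TPM in the Control-KD libraries and at 32.6 to 34.8 TPM in those labelled H2AS40-KD, which does not show the labelled knockdown. H2AC7 was listed at 0, 0 and 2.97 TPM in the Control-KD libraries and at 0.968, 0 and 0.256 TPM in the others, too low to check the labels. Each difference below is therefore between labels. Markers fixed for the line were present (VIM at 2247 to 2281 TPM over the 6 libraries), but 4 of the 5 luminal markers were well above the filter limit too. GATA3 had 436 to 471 TPM, EPCAM 163 to 174 TPM, CDH1 56.8 to 64.8 TPM and ESR1 12.3 to 21.2 TPM, while PGR, the progesterone receptor, had 1.197 to 2.18 TPM. The first 4 go against the triple-negative, mesenchymal character the line is known for, and the reason was not tested. The summed TPM of the 5 luminal markers ran from 698 to 715 in Control-KD and from 682 to 715 in the libraries labelled H2AS40-KD, so the groups overlapped in the sum. GATA3 was lower with no overlap (460.4 to 471 TPM in Control-KD, 436 to 459 TPM in H2AS40-KD). EPCAM was higher with no overlap (163 to 166 TPM, then 168 to 174 TPM). Of all tested genes, 11.3% were lower and 12.9% higher with no overlap. By limma 0 of the 5 luminal markers had an unadjusted p under 0.05, beside 16.5% of all tested genes. Blood, endothelial and fibroblast markers were low, with sums of at most 1.86, 1.07 and 10.0 TPM in a library.

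Promoter sequence is shown for 4 members whose differences run from large to near 0. GALNT5, with the largest log difference, and GALNT6 had no window in the table. GALNT10 had the largest difference in TPM, GALNT7 and C1GALT1C1 had smaller ones, and GALNT12 had overlapping groups. Each run is the 250 bases before the annotated start, read 5′ to 3′ on the gene's strand, from RefSeq on GRCh38.p14. Capitals mark each GC box, GGGCGG or its reverse complement CCGCCC, including overlapping matches.
GALNT10 (chr5:154190483-154190732, plus strand): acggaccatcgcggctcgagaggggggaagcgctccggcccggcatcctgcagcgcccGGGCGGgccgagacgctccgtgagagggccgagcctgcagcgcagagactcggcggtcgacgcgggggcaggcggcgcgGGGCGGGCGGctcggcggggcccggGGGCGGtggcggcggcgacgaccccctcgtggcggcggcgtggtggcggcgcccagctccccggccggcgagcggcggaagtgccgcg
GALNT7 (chr4:173168561-173168810, plus strand): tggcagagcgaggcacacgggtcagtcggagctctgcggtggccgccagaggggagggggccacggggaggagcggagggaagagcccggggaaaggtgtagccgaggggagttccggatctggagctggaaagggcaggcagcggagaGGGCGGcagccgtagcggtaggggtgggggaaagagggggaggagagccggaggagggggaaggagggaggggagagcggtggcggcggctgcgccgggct
C1GALT1C1 (chrX:120630055-120630304, minus strand): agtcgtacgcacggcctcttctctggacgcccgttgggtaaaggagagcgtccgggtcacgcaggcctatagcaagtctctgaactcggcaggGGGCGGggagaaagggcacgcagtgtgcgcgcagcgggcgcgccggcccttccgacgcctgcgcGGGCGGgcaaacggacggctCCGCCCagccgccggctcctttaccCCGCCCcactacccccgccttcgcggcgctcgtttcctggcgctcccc
GALNT12 (chr9:98807420-98807669, plus strand): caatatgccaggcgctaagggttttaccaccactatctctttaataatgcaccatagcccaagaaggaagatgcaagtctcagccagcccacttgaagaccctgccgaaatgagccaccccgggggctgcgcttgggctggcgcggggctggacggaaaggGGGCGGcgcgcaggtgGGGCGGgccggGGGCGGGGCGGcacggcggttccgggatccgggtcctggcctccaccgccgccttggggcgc
The table of promoters held 10 windows for 8 of the members, 3 of them for GALNT1. Of these windows 9 had at least 1 GC box, where 42.6% of all 35116 windows of the same length did. GALNT10, C1GALT1, C1GALT1C1 and GALNT12 each had 4 matches, GALNT3 had 2, and GALNT7 and GALNT2 had 1 each. The GALNT1 windows had 0, 1 and 5. The windows of C1GALT1, GALNT2, GALNT3 and some of GALNT1 lie inside the annotated span of the gene, before a later start. The members' windows were 47.2 to 87.2% G or C, beside a median of 58.0% over all windows. The letters ACGTG, the core of a hypoxia response element, were found in either direction in the C1GALT1 window and in no other member's window, beside 18.5% of all windows. CCAAT was found in either direction in windows of GALNT1, GALNT2, GALNT3 and C1GALT1, beside 32.0% of all windows. A match describes letters only, and genes with 4 GC boxes included both GALNT10 and GALNT12.

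Transcripts of a mixed set of GALNT genes were present beside those of C1GALT1 and its chaperone, with GALNT1 highest. In Control-KD the mean level was 61.7 TPM for GALNT1, then 48.3 for C1GALT1, 43.3 for GALNT6 and 41.3 for GALNT10. GALNT2 (29.1 TPM), C1GALT1C1 (28.2 TPM), GALNT7 (27.9 TPM) and GALNT3 (23.3 TPM) followed, and GALNT5 (4.91 TPM) and GALNT12 (1.33 TPM) were lowest. The ranges of the 3 libraries overlapped between neighbours for C1GALT1 and GALNT6, for GALNT6 and GALNT10, for GALNT2 and C1GALT1C1, and for C1GALT1C1 and GALNT7, so those orders are not resolved. The other neighbours were separate. In the libraries labelled H2AS40-KD the genes ranked in the same order by mean, but GALNT10 overlapped with GALNT2 there and no longer with GALNT6, and GALNT7 overlapped with GALNT3.

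**Figure D1:**
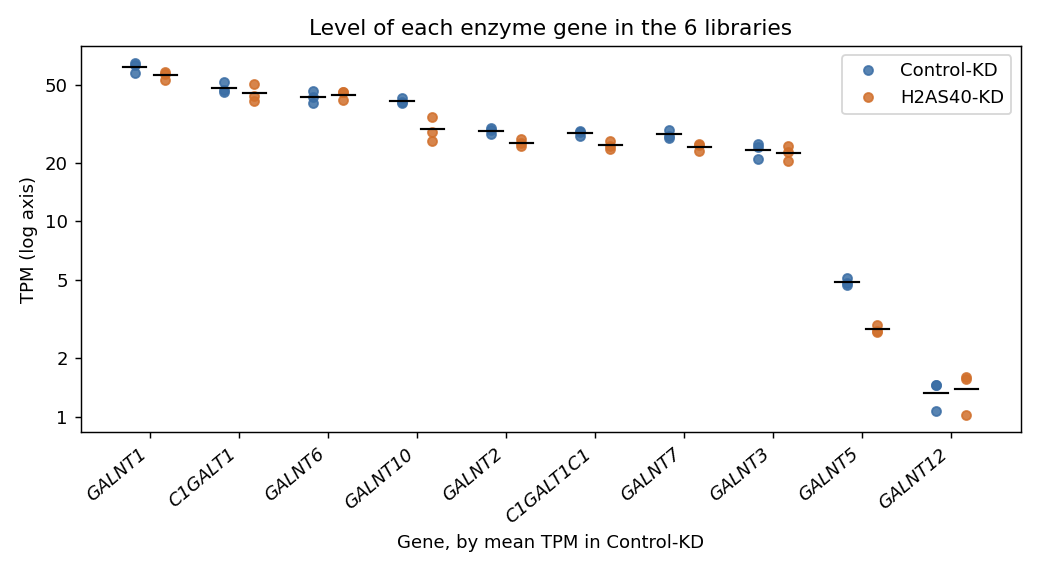
Level of each gene in TPM on a log axis, with 1 point per library, 3 in each group, and a bar at the group mean; genes are ordered by their Control-KD mean. GALNT10 and GALNT5 show the widest separation between the groups, while the points of GALNT3, GALNT6, GALNT12 and C1GALT1 intermingle.

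Most members had a lower mean level in the libraries labelled H2AS40-KD, in the same contrast by which they were chosen. On the log2(TPM + 1) scale 8 members had a negative difference, beside 46.9% of all tested genes, and 2 a positive one. The members had a median of -0.17, beside a median of 0.01 over all 14160 tested genes. The groups did not overlap for 5 members (GALNT2, GALNT5, GALNT7, GALNT10 and C1GALT1C1), each lower in H2AS40-KD, where 11.3% of all tested genes were lower and 12.9% higher with no overlap. Without Control-KD replicate 3, the library that stood apart, the median member difference was -0.19, with -0.65 for GALNT5 and -0.50 for GALNT10. Since the members were chosen with this contrast known, nothing is read from these counts. Of the markers fixed for the line, CAV1 (149 and 111 TPM), CD44 (359 and 310 TPM) and AXL (204 and 192 TPM) were also lower with no overlap, and VIM had 2258 and 2270 TPM. The part of those markers in the members' differences was not tested. In bulk RNA, fewer cells that express a gene and less RNA per cell cannot be told apart.

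**Figure D2:**
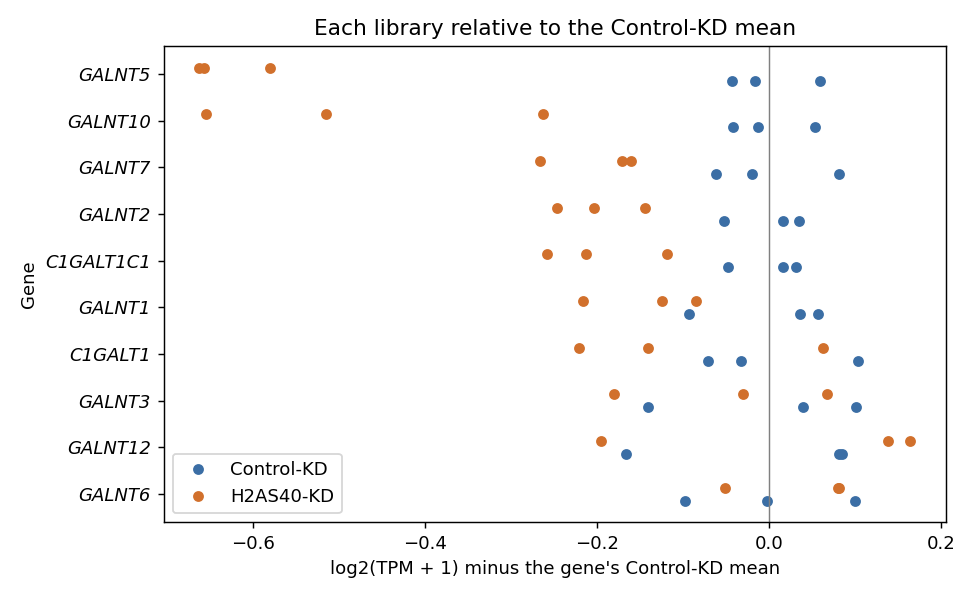
Difference of each library from the gene's Control-KD mean on the log2(TPM + 1) scale, 1 point per library, with genes ordered by the difference between group means. All 3 H2AS40-KD points of GALNT5, GALNT10, GALNT7, GALNT2 and C1GALT1C1 lie left of all 3 Control-KD points.

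GALNT1 and GALNT2 are broadly expressed enzymes that act on bare peptide. GALNT1 (ENSG00000141429), on chromosome 18 of GRCh38.p14 between 35580922 and 35711834, had 63.2, 64.2 and 57.7 TPM in the Control-KD libraries, against 58.1, 52.9 and 56.5 TPM under H2AS40-KD. The lowest Control-KD library lay just below the highest H2AS40-KD library, so the groups overlapped. The means were 61.7 ± 3.49 and 55.8 ± 2.63 TPM (SD, n = 3 each), a log2 difference of -0.14 with a standard error of 0.06. GALNT2 (ENSG00000143641, chromosome 1, 230057789 to 230282122) had 29.5, 29.9 and 28.1 TPM in the Control-KD libraries, against 26.3, 25.2 and 24.4 TPM under H2AS40-KD. Every H2AS40-KD library was below every Control-KD library, by a narrow margin. Its means were 29.1 ± 0.956 and 25.3 ± 0.942 TPM (SD, n = 3 each), a log2 difference of -0.20 with a standard error of 0.06.

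GALNT3 and GALNT6 are closely related to each other. GALNT3 is known for glycosylating the phosphate hormone FGF23 and so protecting it from cleavage. It lies on chromosome 2 from 165747588 to 165794692 (ENSG00000115339) and had 24.99, 21.0 and 23.9 TPM in the Control-KD libraries, against 24.4, 20.4 and 22.7 TPM under H2AS40-KD. The groups covered nearly the same range, with means of 23.3 ± 2.07 and 22.5 ± 2.01 TPM (SD, n = 3 each). The log2 difference was -0.05, with a standard error of 0.09. GALNT6, which is often raised in breast carcinoma, lies on chromosome 12 from 51351252 to 51391673 (ENSG00000139629). It had 40.3, 43.1 and 46.4 TPM in the Control-KD libraries, against 45.8, 45.8 and 41.7 TPM under H2AS40-KD. These groups overlapped as well, with means of 43.3 ± 3.03 and 44.4 ± 2.36 TPM (SD, n = 3 each). Its log2 difference was 0.04, with a standard error of 0.07. SLC4A8 overlaps GALNT6 in the annotation and had 1.86 to 3.42 TPM over the 6 libraries.

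GALNT5 had the largest difference of the set on the log scale. This less studied family member lies on chromosome 2 from 157257705 to 157318491 (ENSG00000136542). It had 4.85, 5.16 and 4.74 TPM in the Control-KD libraries, against 2.95, 2.73 and 2.75 TPM under H2AS40-KD. Both groups were tight and far apart, with no library in between. The means were 4.91 ± 0.217 and 2.81 ± 0.123 TPM (SD, n = 3 each), a change of -42.8% in mean TPM. On the log2(TPM + 1) scale the difference was -0.63, with a standard error of 0.11. With a pseudocount of 0.1 in place of 1 it was -0.78, since a pseudocount of 1 compresses differences at this level.

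The 3 tested genes whose profile was most like that of GALNT5 were DPYSL2, CST1 and PEG10. Likeness was the root mean square difference of log2(TPM + 1), centred on each gene's mean over the 6 libraries, and came to 0.0391, 0.0396 and 0.0453. DPYSL2 had 16.7, 17.3 and 16.8 TPM in the Control-KD libraries, against 11.4, 10.0 and 10.9 TPM under H2AS40-KD. CST1 was far higher than GALNT5, at 90.7 to 92.6 TPM in Control-KD and 57.5 to 61.1 TPM in H2AS40-KD. The measure rewards a like difference between the groups as well as like variation within them.

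GALNT7 and GALNT10 prefer peptides that already carry GalNAc, and so extend sites that other members open. GALNT7 (ENSG00000109586, chromosome 4, 173168811 to 173323967) had 26.6, 29.5 and 27.4 TPM in the Control-KD libraries, against 23.0, 24.6 and 24.8 TPM under H2AS40-KD. The groups were separate, with means of 27.9 ± 1.48 and 24.1 ± 1.01 TPM (SD, n = 3 each) and a log2 difference of -0.20 (standard error 0.07). GALNT10 (ENSG00000164574, chromosome 5, 154190733 to 154420984) had 40.9, 42.9 and 40.1 TPM in the Control-KD libraries, against 25.9, 28.6 and 34.2 TPM under H2AS40-KD. All 3 H2AS40-KD libraries were lower, but they were spread, and replicate 3 lay closest to Control-KD. The means were 41.3 ± 1.43 and 29.6 ± 4.28 TPM (SD, n = 3 each), a change of -28.4% in mean TPM. Its log2 difference was -0.48 (standard error 0.10), and from -0.58 to -0.39 when 1 library was left out in turn. The lncRNA SAP30L-AS1 overlaps GALNT10 in the annotation and was not analysed here. The sources used here do not say whether the libraries kept strand, so reads of overlapping genes cannot be told apart.

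GALNT12, an enzyme best known from the digestive tract, was near the filter limit of 1 TPM. It lies on chromosome 9 from 98807670 to 98850081 (ENSG00000119514) and had 1.46, 1.46 and 1.07 TPM in the Control-KD libraries, against 1.60, 1.56 and 1.03 TPM under H2AS40-KD. Each group held 2 higher libraries and 1 lower one, and the ranges overlapped. The means were 1.33 ± 0.226 and 1.40 ± 0.319 TPM (SD, n = 3 each). The log2 difference was 0.04, with a standard error of 0.18, the largest of the set. It was -0.05 without Control-KD replicate 3.

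The enzyme of the second step had groups that overlapped. C1GALT1 (ENSG00000106392, chromosome 7, 7157377 to 7248616) had 47.1, 45.9 and 51.9 TPM in the Control-KD libraries, against 43.6, 50.4 and 41.2 TPM under H2AS40-KD. H2AS40-KD replicate 2 lay within the Control-KD range and the other 2 below it. The means were 48.3 ± 3.19 and 45.1 ± 4.76 TPM (SD, n = 3 each), and the log2 difference was -0.10, with a standard error of 0.09. Without Control-KD replicate 3 that difference was -0.05.

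The chaperone C1GALT1C1 (ENSG00000171155, chromosome X, 120625674 to 120630054) had 27.3, 28.9 and 28.6 TPM in the Control-KD libraries, against 24.2, 25.9 and 23.4 TPM under H2AS40-KD. Its groups did not overlap, with means of 28.2 ± 0.849 and 24.5 ± 1.27 TPM (SD, n = 3 each) and a log2 difference of -0.20 (standard error 0.06). The C1GALT1 level per C1GALT1C1 level was 1.73, 1.59 and 1.82 in Control-KD and 1.80, 1.94 and 1.76 in H2AS40-KD, so the ratio overlapped between groups. C1GALT1C1L, a related copy that could share reads with the chaperone, had 0.4997 to 2.60 TPM, and 3 annotated C1GALT1 pseudogenes had at most 0.0773 TPM in a library.

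Summed over the 8 GALNT members, the level was lower in every H2AS40-KD library. The sums were 232, 237 and 229 TPM in the Control-KD libraries, against 208, 202 and 208 TPM under H2AS40-KD. The means of 233 ± 3.96 and 206 ± 3.63 TPM (SD, n = 3 each) differed by 26.9 TPM, a change of -11.6%. GALNT10 alone made up 43.6% of that net difference, and GALNT1, GALNT2 and GALNT7 together made up 50.1%. These shares follow from the members' own levels and are no separate evidence.

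Shares of the summed GALNT level were separate between the groups for 2 members. GALNT10 was 17.6, 18.1 and 17.5% of the summed TPM in Control-KD and 12.4, 14.2 and 16.5% in H2AS40-KD, with no overlap. GALNT5 was 2.07 to 2.17% in Control-KD and 1.32 to 1.42% in H2AS40-KD, also separate. GALNT6 was 17.4, 18.2 and 20.2% against 22.0, 22.7 and 20.035%, and these groups overlapped. GALNT1 held the largest share in each library, from 25.2 to 27.9%. The shares of GALNT2, GALNT3, GALNT7 and GALNT12 overlapped between groups. A share can move because the gene itself differs or because others in the sum do.

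**Figure D3:**
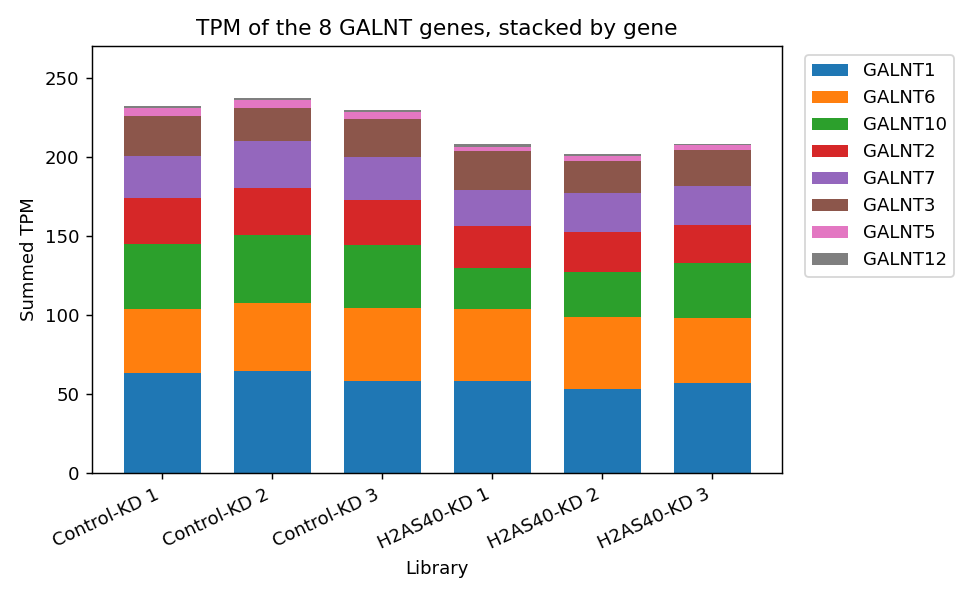
TPM of the 8 GALNT genes stacked in each of the 6 libraries, with 1 bar per library starting at 0 and 1 colour per gene. The bars reach 229 to 237 TPM in Control-KD and 202 to 208 TPM in H2AS40-KD, and the GALNT10 segment is thinner in H2AS40-KD replicates 1 and 2.

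The 12 other GALNT genes of the human genome held a small part of the family's level. They summed to 40.9, 41.7 and 42.9 TPM in the Control-KD libraries, against 39.3, 43.5 and 44.0 TPM under H2AS40-KD, and the groups overlapped. The 8 members held 84.2 to 85.03% of the TPM of all 20 GALNT genes in Control-KD and 82.3 to 84.1% in H2AS40-KD. Of the 12, 5 reached the filter and 7 had means under 1 TPM in both groups. GALNT11 was the highest, with 20.7 and 21.1 TPM, followed by GALNT18 (6.63 and 6.51 TPM), GALNT4 (6.49 and 6.08 TPM) and GALNT14 (4.88 and 5.37 TPM). By limma, with p-values adjusted over all tested genes (Benjamini-Hochberg), 0 of the 5 were called, beside 1.26% of all tested genes. That share is 178 genes, and 5 to 34 genes were called when any library other than Control-KD replicate 3 was left out. An unadjusted p under 0.05 was found for 0 of the 5, beside 16.5% of all tested genes, and GALNT14 had the smallest p (limma adjusted p = 0.703). GALNT4 shares its sequence with the readthrough gene POC1B-GALNT4, so its level is uncertain. GALNTL5 was listed at 0 in all 6 libraries.

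Genes that act after or around these enzymes were tested in lists by role, and 1 of 35 tested genes passed. PODXL (podocalyxin), a heavily O-glycosylated membrane protein of the sialomucin type, had 74.8, 69.8 and 72.3 TPM in the Control-KD libraries, against 52.7, 55.1 and 57.1 TPM under H2AS40-KD. Its mean fell from 72.3 ± 2.49 TPM to 55.0 ± 2.19 TPM (SD, n = 3 each). The log2 change was -0.39, with a standard error of 0.05 (limma adjusted p = 0.0207), lower in 3 of 3 libraries. That call was lost when any library other than Control-KD replicate 3 was left out (adjusted p from 0.0632 to 0.108), with no filter on low values and with no intensity trend. Over the 60 listed genes, which include the 12 other GALNT genes, 35 were tested. Of these 0 rose and 1 fell, beside 0.516% and 0.742% of all tested genes, shares that rest on the same 178 calls, and the median log2 difference was -0.06. Without overlap, 9 were lower and 1 higher, beside 11.3% and 12.9% of all tested genes.

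Among the other acceptors, MUC1, a transmembrane mucin of breast epithelium, had 64.2, 63.2 and 57.2 TPM in the Control-KD libraries, against 63.9, 68.1 and 75.3 TPM under H2AS40-KD. The groups overlapped (limma adjusted p = 0.336). MUC5B, a gel-forming mucin, had 1.49 and 1.83 TPM, and the remaining 13 acceptors had means under 1 TPM in both groups.

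Of the other enzymes that act after initiation, 6 of 8 extension and sialylation genes and 1 of 4 branching genes were tested, and none passed. The others had means under 1 TPM in both groups. ST3GAL1, which caps core 1 with sialic acid, had means of 35.7 and 32.0 TPM, with overlapping groups. B4GALT5, a galactosyltransferase, had the smallest p of its list, with 20.6, 20.4 and 19.8 TPM in the Control-KD libraries, against 16.7, 18.02 and 17.2 TPM under H2AS40-KD (limma adjusted p = 0.170). Of the 6 tested extension and sialylation genes, 5 had a negative difference, beside 46.9% of all tested genes. By limma 0 were called and 1 had an unadjusted p under 0.05, beside 1.26% and 16.5%. With no overlap 2 were lower and 0 higher, beside 11.3% and 12.9%. GCNT1, which branches core 1 to core 2, was the 1 tested branching gene, at 11.1 and 11.8 TPM (limma adjusted p = 0.843).

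Genes that supply the sugar donor had differences of both signs, negative in 2 of 4, beside 46.9% of all tested genes. By limma 0 were called and 0 had an unadjusted p under 0.05, beside 1.26% and 16.5%. SLC35D1, which carries UDP-GalNAc and UDP-glucuronic acid into the endoplasmic reticulum, had the smallest p, with 6.15, 5.91 and 6.17 TPM in the Control-KD libraries, against 5.40, 5.45 and 4.86 TPM under H2AS40-KD. Every H2AS40-KD library was lower, as for 11.3% of all tested genes, but the gene did not pass (log2 difference -0.18, standard error 0.10, limma adjusted p = 0.409). SLC35A2, which carries UDP-galactose and UDP-GalNAc into the Golgi, had 40.02 and 42.3 TPM with overlapping groups.

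Enzymes that start other kinds of protein O-glycan gave a comparison outside the mucin type. All 16 were tested, 0 were called by limma and 4 had an unadjusted p under 0.05, beside 1.26% and 16.5% of all tested genes. Of the 16, 12 had a negative difference, beside 46.9%, and the median was -0.13. With no overlap, 5 were lower and 1 higher, beside 11.3% and 12.9% of all tested genes. POMT2, an O-mannosyltransferase, had the smallest p and was the one higher, with 29.8 and 33.8 TPM (limma adjusted p = 0.203). POFUT1, which places O-fucose on Notch, had 42.5 and 38.8 TPM, and COLGALT1, which glycosylates collagen, had 88.7 and 81.0 TPM. The median of the 10 members (-0.17) and that of these 16 genes were not tested against each other.

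**Figure D4:**
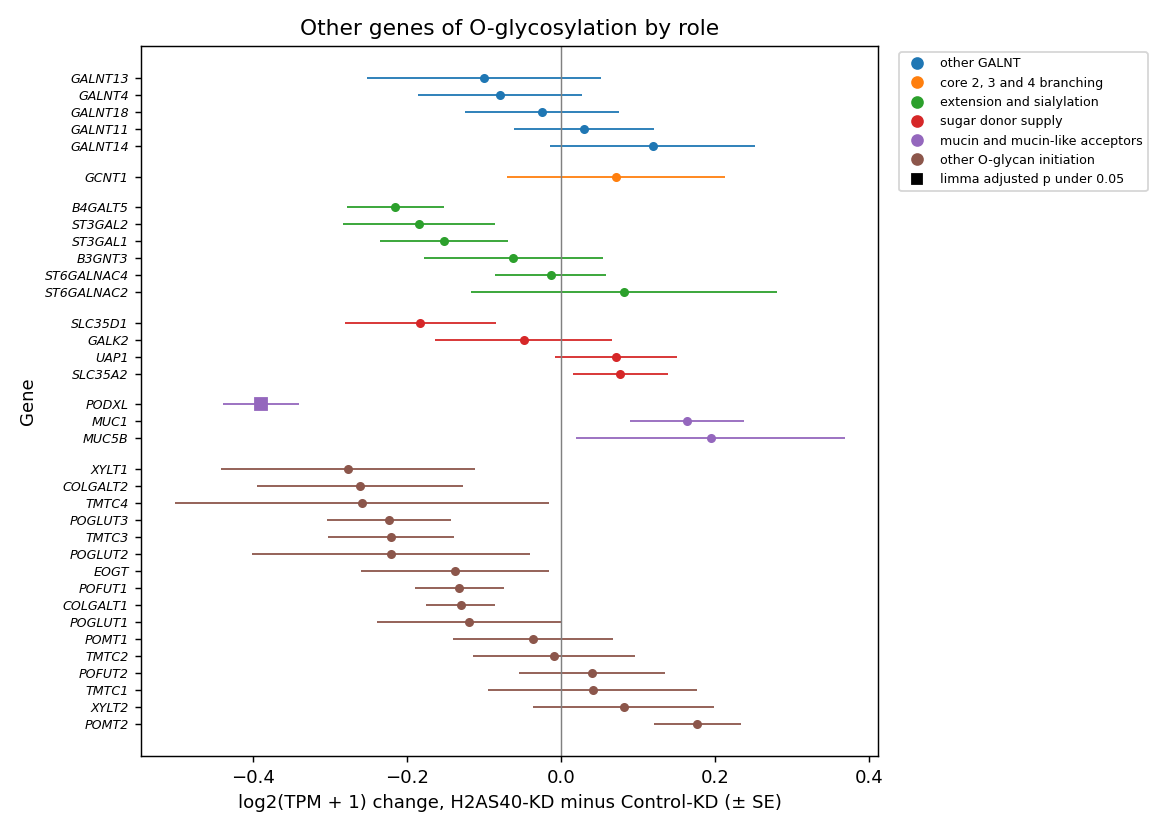
Difference in log2(TPM + 1) between H2AS40-KD and Control-KD for the 35 tested genes of the other lists, coloured by role, with bars of 1 standard error from limma. PODXL, the square at -0.39, is the 1 gene that passed, and SLC35D1 lies at -0.18.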

How the data were processed

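Gene-level TPM deposited by the authors were used for 6 RNA libraries. How they were estimated is not stated in any source used here. Per the submitters' processing notes, hg38 is the build named; Bowtie2 and MACS2 also appear there without a version or role. Each library summed to 1000000, and the most alike pair of libraries shared identical TPM in 0.113% of tested genes, so none was a duplicate. TPM keep no depth, so no counting interval was given.

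Identifiers were matched to symbols for 34436 of 37247 rows. Genes at 1 TPM or more in at least 3 libraries were kept (14160), and log2(TPM + 1) was fitted with limma 3.58.1 in R 4.3.3 (group term, eBayes with an intensity trend, two-sided). The Benjamini-Hochberg adjustment covered all tested genes, with a threshold of 0.05, and the step was tested on simulated data. Differences are on that log scale and understate those of low genes. Coordinates and promoters are RefSeq's, on GRCh38.p14. Named genes were all members, and in each list the called genes or else the gene with the smallest p. Other list genes were named after their values were seen. A gene of the sugar donor list is not reported here, and counts over the lists leave it out. Members and lists were chosen with earlier results of these data known. Alternatives covered the pseudocount, filter, scaling, trend, replicate number and each library left out.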

Additional observations from a re-analysis of the deposited data

How the results depend on the processing

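The sign of the difference was the same under every alternative run for GALNT1, GALNT2, GALNT5, GALNT7, GALNT10, C1GALT1 and C1GALT1C1. A changed filter leaves a member's difference as it was, so those alternatives could not alter its sign. GALNT3, GALNT6 and GALNT12 changed sign under 2, 1 and 3 alternatives, each of which left out 1 library. The median member difference ran from -0.19 to -0.15 without 1 library, and the log2 ratio of summed GALNT TPM from -0.19 to -0.16. Over all tested genes the count of calls was 178 (73 higher, 105 lower). It was 86 with no filter on low values, 10 with no intensity trend and 5 to 159 without 1 library. Quantile normalization gave 60 higher and 122 lower. In the other lists the count of 1 became 0 with no filter, with no trend and with the replicate block, and was 0 to 1 without 1 library. GCNT1 ran from -0.038 to 0.18 without 1 library and so took the other sign in 2 of those fits. With the replicate number as a block 0 genes were called. Same-numbered libraries did not deviate together (correlations of -0.0101, -0.0642 and -0.00154 across genes). That gives no sign of pairing, but it cannot show that replicates were not prepared in pairs. The cause of these changes was not tested. GALNT5 and GALNT12 were not tested under a filter of 5 TPM. TPM carry no depth, so the counting error of GALNT5 and GALNT12, the lowest members, is unknown.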

Other observations

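Enzymes that place GalNAc on other molecules were listed after the data were seen, so no p-value is given for them. No tested gene among them was called by limma, beside 1.26% of all tested genes. B4GALNT1, which makes the gangliosides GM2 and GD2, had 9.31, 9.58 and 7.70 TPM in the Control-KD libraries, against 13.5, 9.92 and 13.5 TPM under H2AS40-KD. Its groups did not overlap, with the means at 8.86 and 12.3 TPM, where 12.9% of all tested genes were higher with no overlap. B3GALNT1, the globoside synthase, had 50.2 and 46.7 TPM, and B3GALNT2, which acts on O-mannose glycans, had 21.0 and 18.7 TPM, both with overlapping groups. CSGALNACT2, which starts chondroitin sulfate chains, had 43.0 ± 0.289 and 44.3 ± 0.549 TPM (SD, n = 3 each), also higher with no overlap. The chondroitin genes CHPF (62.6 and 68.3 TPM) and CHSY1 (23.2 and 22.1 TPM) had overlapping groups. So did every gene of this list that is not named here.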
